A study of Mus musculus with 12 samples.

Results

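This comparison asks how the transcripts of skeletal muscle at lights off differ between mice that overexpress the repressor E4BP4 in the liver and wild-type mice. It rests on 6 of the 12 libraries of the study: 3 from transgenic (TG) and 3 from wild-type (WT) animals at Zeitgeber time 12 (ZT12), and all genes of the deposited expression table. The tissue was gastrocnemius, a mixed, mostly fast calf muscle. All mice were C57BL/6, aged 8 weeks, fed chow at will and kept in equal spans of light and dark with no treatment. The TG mice carry E4BP4 overexpression described as specific to the liver; the labels used here name neither the promoter that drives it nor the sex of the animals. The remaining 6 libraries, 3 TG and 3 WT at ZT0, entered the fit to share the estimate of spread and served as the other time point. The labels do not state whether the libraries are of different mice, so p-values measure the spread between these samples, which may be technical.

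E4BP4 is a basic leucine zipper repressor encoded by Nfil3. It binds D-box elements, the same DNA motif that the activators DBP, TEF and HLF bind, so that shared target genes are repressed or activated as these factors change over the day. In the liver it is linked to the circadian clock and to metabolism. Muscle has a clock of its own, in which the activators CLOCK and BMAL1 (encoded by Arntl) drive the repressors PER, CRY and REV-ERB.

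Values are TPM as deposited, a transcript abundance scaled to gene length and to the library's total, and each log2 difference is TG minus WT on log2(TPM + 1), which understates the change of low genes. The deposited TPM values returned whole reads, which summed over listed genes, in units of 1e+06, to 17.7 to 20.2 in WT ZT12 and 13.1 to 15.8 in TG ZT12 (exact permutation test, two-sided, p = 0.1, the smallest that 3 against 3 allows). Depth and genotype cannot be told apart at this time point. TG replicate 1 stood apart: its median gene had 4.96 TPM against 6.26 to 7.25 in the other 5 libraries, and its 10 highest genes took 39.0% of the TPM against 32.2 to 36.0%. Its median correlation with the other ZT12 libraries was 0.978, against 0.983 to 0.988. Among all 12 libraries, WT ZT0 replicate 2 deviated most in correlation: its median with the others was 0.9452, the lowest. Its median gene, at 9.26 TPM, was the highest of the 12. That library entered the shared estimate of spread behind each standard error and p-value, and the WT mean at ZT0. Genes of the contractile apparatus were the most abundant in all 6 libraries, with 10 muscle fibre markers summing to 99350 to 108400 TPM, so the tissue was muscle as labelled.

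No gene passed the test at ZT12. Of 10415 genes tested, 0 (0.0%) had an adjusted p under 0.05 (limma with Benjamini-Hochberg adjustment), and the smallest adjusted p was 0.9997. At an unadjusted p under 0.05 there were 99 genes (0.951%), 8 higher in TG (0.0768%) and 91 lower (0.874%). Evenly spread p-values would put a share of 0.05 under that threshold, more than was found, so the test ran conservative. Without WT ZT0 replicate 2 the limma count was 195, and without TG ZT12 replicate 1 as well it was 773. The lack of called genes therefore does not show a lack of differences. Over all genes the median standard error was 0.193 on the log2 scale, and the median 95% interval reached 0.42 to either side. On simulated data of the same size, the test called 23% of genes changed 1.5-fold and 65% of genes changed 2-fold, with 6 false calls. The changed genes there were drawn from those with a mean of at least 5 TPM. Noise was independent for each gene, with no shift of a whole library, so lower genes and such shifts were not covered. The authors' deposited table for ZT12 also held 0 genes under an adjusted p of 0.05. Its 4 genes with a p under 0.05 were Chac1, Gadd45g and the pair Amd1 and Amd2, polyamine synthesis genes at overlapping positions whose reads cannot be told apart.

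The direction of the bulk of genes depended on the scaling. As deposited, 23.4% of genes had a positive log2 difference and the median was -0.07. With median-of-ratios scaling 50.6% were positive and the median was 0.002, and without TG replicate 1 the median was 0.039 on the deposited scale. On that scale 6222 of 10415 genes were above 0 without TG replicate 1, and 1586 without TG replicate 2 (median -0.17). Without TG replicate 3 it was 2506 (median -0.10), and with log2 depth as a covariate 7514 (median 0.14). Leaving out WT replicate 1, 2 or 3 gave 2599, 3560 and 2106 genes above 0. The groups did not overlap in 499 genes (4.79%): all 3 TG values lay above all 3 WT values for 55 (0.528%) and below for 444 (4.26%). Those 2 counts became 284 and 312 with median-of-ratios scaling. Counts of genes on each side are therefore read below against these totals.

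**Figure D1:**
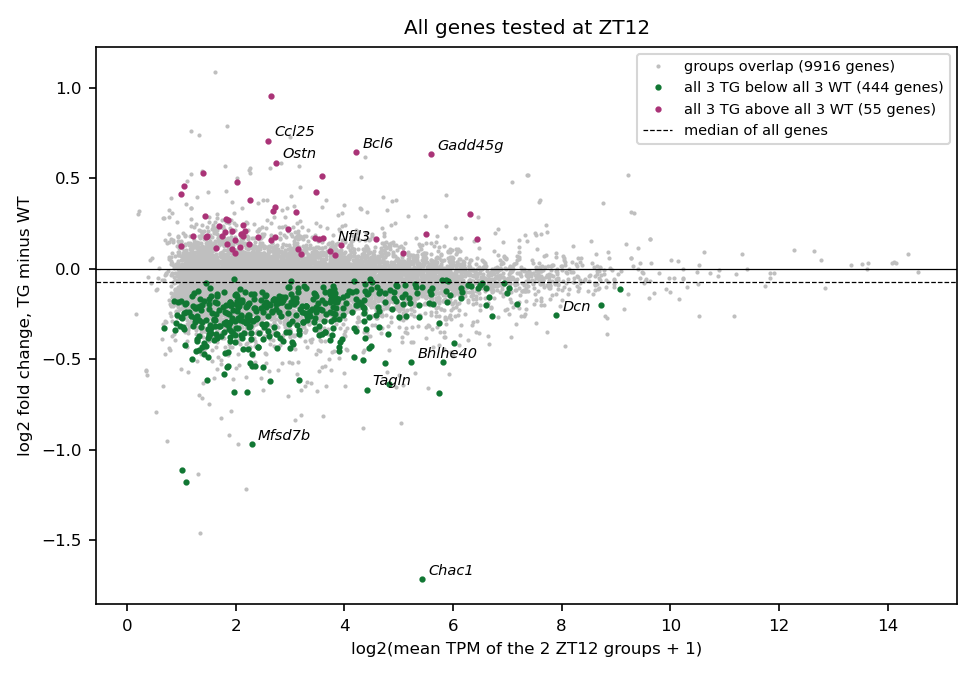
Log2 difference between TG and WT at ZT12 (vertical axis) against mean abundance on a log2 axis for 10415 genes; green points are the 444 genes with all TG values below all WT values, pink points the 55 with all TG values above. Chac1 lies lowest at -1.71, and most points sit just under 0, with a median of -0.07 (dashed line).

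The gene that encodes E4BP4 had overlapping levels in the muscle of the 2 genotypes. Nfil3 (mm10, chr13:52967209-52981039, minus strand) stood at 7.40, 13.95 and 13.97 TPM in the WT libraries and at 7.96, 20.9 and 11.6 TPM in the TG libraries. Replicate 1 was the lowest of each group. The log2 difference was 0.13 (standard error 0.31, 95% interval -0.53 to 0.80), and its sign turned in 3 of 34 alternative settings. Several of the 34 could not turn it, since they altered only the spread or the ZT0 libraries. A transgene of another species, or one without the counted exons, would not be seen in this row, and the liver itself was not measured here.

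Chac1 had the lowest log2 difference of all genes with a mean of at least 5 TPM whose groups did not overlap. It encodes an enzyme that degrades glutathione and is induced by the integrated stress response, the programme that cells turn on when amino acids run short or proteins misfold. WT libraries read 103, 32.3 and 65.1 TPM and TG libraries 15.6, 24.2 and 14.3 TPM. Every TG value was below every WT value, but the WT values spread over more than the gap between the groups. The log2 difference was -1.71 (standard error 0.62, limma adjusted p = 0.9997), and it lay at -1.33 without WT replicate 1 and -1.63 without TG replicate 1. Of the stress programme as a whole, 12 of 18 tested members were below 0, with a median of -0.07, the median of all genes, and 6 of 18 were without TG replicate 1, while Mthfd2, a mitochondrial folate enzyme, had 1.46, 2.55 and 1.496 TPM in WT and 2.32, 2.73 and 2.32 TPM in TG.

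Abi3bp, Nbl1 and Cd9 had the smallest p of the genes named by p. Of the 20 named by p, 18 were lower in TG and 2 higher, and the choice by p favours groups that do not overlap, as all 20 were here. Abi3bp, a matrix protein, stood at 5.41, 5.17 and 4.62 TPM in WT and at 2.68, 3.27 and 3.61 TPM in TG (log2 difference -0.54, standard error 0.15). Nbl1, a secreted inhibitor of bone morphogenetic proteins, had 23.1, 16.8 and 20.7 TPM in WT against 14.5, 15.3 and 12.5 TPM in TG. Cd9, a membrane tetraspanin, gave the tightest groups of the 3, with 24.5, 21.2 and 22.6 TPM in WT and 15.1, 16.5 and 15.7 TPM in TG. The limma adjusted p was 0.9997 for each of these 3 genes.

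Igfbp6 and Serpinf1 were among the same 20. Igfbp6, a binding protein for insulin-like growth factor 2, had 67.5, 59.3 and 67.4 TPM in WT and 49.2, 54.9 and 33.3 TPM in TG. Serpinf1, which encodes the anti-angiogenic factor PEDF, had 77.9, 68.8 and 72.6 TPM in WT and 56.1, 65.3 and 44.3 TPM in TG. In both genes TG replicate 2 came close to the lowest WT library and TG replicate 3 was lowest. Pdgfrl, Tnfrsf19, Itgbl1, Ccdc3, Pamr1 and Arl4d were lower as well, with log2 differences of -0.46 to -0.54. The remaining ones below WT were Mfsd7b (-0.97), 7420461P10Rik (-0.68), A230020J21Rik (-0.62), Tmem216 (-0.49) and Mrps36 (-0.46), with Bhlhe40 and Thbs4 described below. Mfsd7b and A230020J21Rik overlap on opposite strands. Without strand information, reads from the overlap cannot be told apart, so these genes may not be separate results.

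The 2 higher genes in that set are signalling genes. Ccl25, a chemokine, stood at 3.23, 3.88 and 3.55 TPM in WT and at 5.66, 5.87 and 7.94 TPM in TG (log2 difference 0.71, standard error 0.23). Gadd45g, a stress and growth-arrest gene, had 26.9, 41.3 and 44.5 TPM in WT and a narrow 56.3, 60.5 and 55.7 TPM in TG (log2 difference 0.63, standard error 0.22). Every TG library lay above every WT library in both genes, and both kept their sign in all 34 alternative settings. Much of that was fixed beforehand, since settings that altered only the spread or the ZT0 libraries could not turn a sign. Nor could leaving out 1 ZT12 library on the deposited scale, as the groups did not overlap. Bcl6, a transcriptional repressor, was also above WT, at 14.1, 11.3 and 15.2 TPM against 19.6, 20.04 and 25.6 TPM, with a log2 difference of 0.65 and a standard error of 0.38 from the spread over all 4 groups; its sign turned in 1 of 34 settings. Ostn, a peptide hormone of muscle and bone known as musclin, had 4.20, 3.51 and 5.28 TPM in WT and 6.06, 9.70 and 5.61 TPM in TG. The longer genes that complete the highest set were Odf3l2 (0.51) and Pnck (0.34), and the lowest set also held Tmem176a (-0.62).

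**Figure D2:**
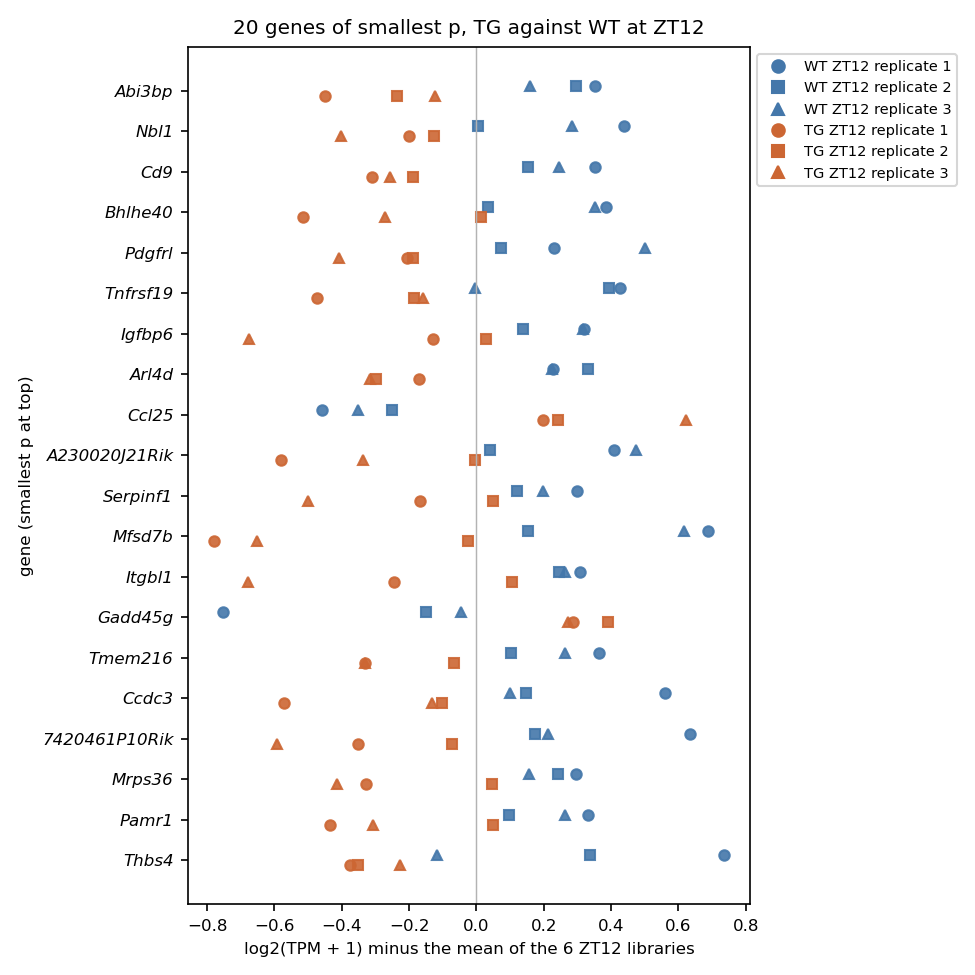
Values of the 20 genes of smallest p in each ZT12 library, as log2(TPM + 1) minus the mean of the 6 libraries (horizontal axis); blue symbols are WT, orange TG, and the symbol shape gives the replicate. In 18 genes all orange symbols lie left of all blue ones, and in Ccl25 and Gadd45g they lie right of them.

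Most clock genes overlapped between the genotypes. None of the 4 tested activators had groups that did not overlap, among 3 below 0 and 1 above: Arntl stood at 8.06, 8.98 and 7.60 TPM in WT and 4.97, 11.7 and 7.88 TPM in TG, Clock had a log2 difference of -0.21 and Rora 0.10. Of the 9 tested repressors 3 had groups that did not overlap, against 4.79% of all genes. Per1 lay above WT and Per3 and Bhlhe40 below. For Per1 the gap lay between 2.183 TPM in WT replicate 1 and 2.189 TPM in TG replicate 1. Bhlhe40, which encodes DEC1, had 47.0, 36.7 and 46.0 TPM in WT and 24.7, 36.1 and 29.5 TPM in TG (log2 difference -0.52, standard error 0.15). TG replicate 2 came close to the lowest WT library. Its paralog Bhlhe41, which encodes DEC2, went the other way, with 16.7, 19.9 and 17.1 TPM against 17.6, 24.3 and 26.3 TPM (log2 difference 0.31). Nr1d1, the REV-ERB alpha gene, had 78.4, 62.5 and 79.5 TPM in WT and 52.1, 57.2 and 80.8 TPM in TG, and Nr1d2 had a log2 difference of -0.02. Differences were 0.24 for Per1, 0.06 for Per2, -0.20 for Per3, -0.04 for Cry1 and -0.14 for Cry2.

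D-box factors other than Nfil3 overlapped too. Dbp had 50.3, 33.3 and 48.4 TPM in WT and 48.0, 23.6 and 41.4 TPM in TG, Tef a log2 difference of -0.13 and Hlf 0.06. A search for the D-box words TTATGTAA and TTACGTAA on both strands, within 300 bases of RefSeq promoter (GRCm38.p6, 250 bases before to 50 after the start), matched 66 of 7968 tested genes with an entry (0.828%). Among genes with all TG values below WT as deposited, 6 of 306 (1.96%) held a match, and among those above, 0 of 35. Of the genes of smallest p or largest change with an entry, 0 of 18 held one. Whether these shares differ from that of all genes was not tested. Of the 17 genes of the clock and D-box lists with an entry only Per3 held a match, and it held 2. Variant words and sites further from the start were not searched. The 2 windows are shown as the sole matches to these exact words in the promoter bases of those genes, with the D-box in capitals:
Per3 at -205 from its start (GRCm38.p6, minus strand), chr4:151044852-151044881: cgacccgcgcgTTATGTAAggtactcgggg
Per3 at -158 from its start (GRCm38.p6, minus strand), chr4:151044805-151044834: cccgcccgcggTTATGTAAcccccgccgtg
Per3 itself read 2.38, 1.504 and 1.53 TPM in WT and 1.43, 1.48 and 1.33 TPM in TG. The groups are separated only by the gap between 1.504 and 1.483 TPM. A match is a description of letters, not of binding.

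Among clock outputs of muscle and hormone-responsive genes, Klf15 stood below and Usp2 above WT. Of 13 tested outputs 1 lay above and 2 below WT without overlap, against 0.528% and 4.26% of all genes. Klf15, a glucocorticoid-induced regulator of amino acid use, had 17.2, 12.3 and 13.3 TPM in WT and 10.6, 11.5 and 9.49 TPM in TG (log2 difference -0.39, standard error 0.16). Usp2, a deubiquitinase under clock control, had 39.0, 44.5 and 40.1 TPM against 45.2, 48.6 and 47.7 TPM. Cebpb had a log2 difference of -0.33 and Cdkn1a -0.17, both overlapping.

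**Figure D3:**
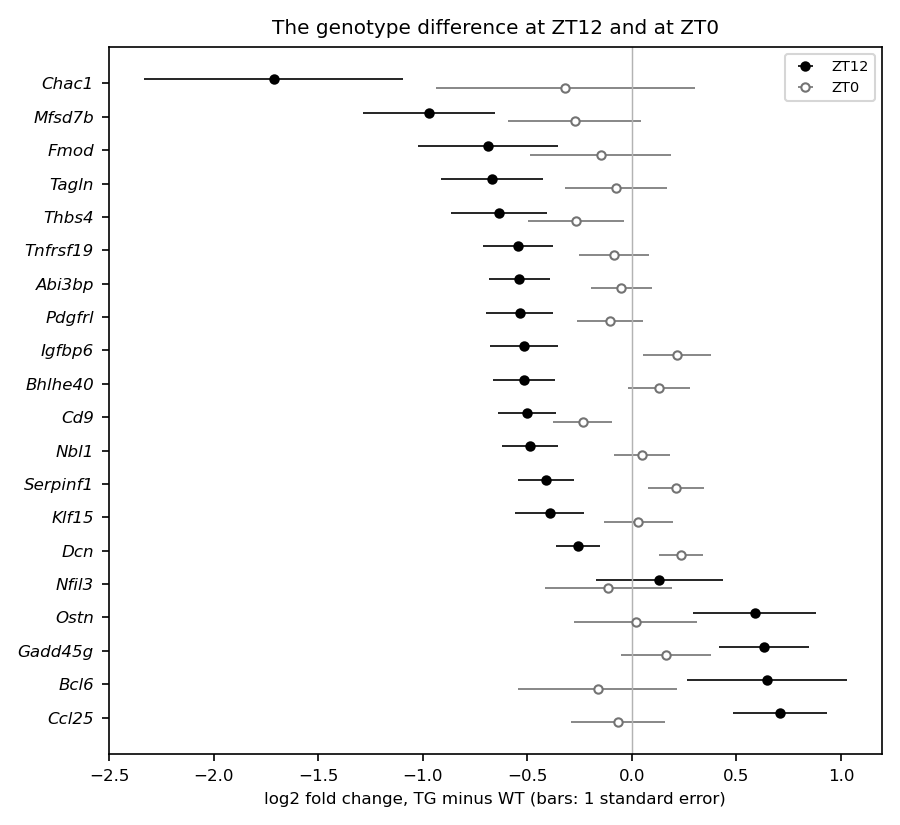
Log2 difference between TG and WT at ZT12 (filled) and at ZT0 (open) for 20 genes, with bars of 1 standard error. Most genes that lie below 0 at ZT12 lie nearer to 0 at ZT0, and Bhlhe40, Igfbp6, Serpinf1, Dcn, Nbl1 and Klf15 lie above 0 there. Most of the 20 genes were chosen by their ZT12 values, which in itself favours a larger difference at ZT12.

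Growth hormone and insulin-like growth factor signalling, a route by which liver acts on muscle, gave 6 members above and 17 below 0 of 23 tested, with a median of -0.08. Without TG replicate 1, 15 were above and 8 below, with a median of 0.09. Igfbp6 was the only member whose groups did not overlap, against 4.79% of all genes. Among genes chosen after their values were seen, Igf1, the growth factor itself, had a log2 difference of 0.21 (95% interval -0.32 to 0.74), and Socs2, a growth hormone target, 0.09 (-0.55 to 0.73). Stat5b had 81.1, 55.6 and 62.3 TPM in WT and 43.4, 59.7 and 63.4 TPM in TG. The muscle-wasting list had 12 of 16 members below 0 (median -0.10) with no gene separated, and 3 of 16 (median 0.14) without TG replicate 1. Mstn, the growth inhibitor myostatin, had 23.5, 22.2 and 23.9 TPM in WT and 22.6, 28.4 and 39.0 TPM in TG, and Fbxo32, the ubiquitin ligase atrogin-1, 45.6, 34.7 and 36.6 TPM against 34.5, 57.5 and 54.5 TPM.

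Matrix genes lay mostly below WT. Of 36 tested matrix glycoproteins, proteoglycans and other secreted proteins, 34 were below 0 with a median of -0.32. For all genes it was 7974 of 10415 and -0.07. All TG values were below all WT values in 9 of the 36, against 4.26% of all genes. This list, like the others, was chosen with earlier results of these data known. It holds Abi3bp and Nbl1, named above for their small p. Bgn, a small proteoglycan that binds collagen, had 31.5, 31.3 and 28.9 TPM in WT and 16.1, 27.7 and 20.5 TPM in TG. Mfap5, of elastic microfibrils, had 21.9, 24.8 and 25.7 TPM against 18.6, 21.5 and 13.4 TPM, and Fbln1, of basement membranes, a log2 difference of -0.60. TG replicate 1 was lowest for the list as a whole: summed TPM were 1154 to 1181 in WT and 848.8, 1128 and 910.3 in TG replicates 1 to 3. Without that library 27 of 36 were below 0 and the median was -0.16, without TG replicate 2 the median was -0.51 (35 of 36 below 0), and with log2 depth as a covariate 24 of 36 were. All 16 tested collagen chains were below 0 (median -0.21), but 8 of 16 were, with a median of 0.01, without TG replicate 1; Col1a1 had 93.5, 106 and 88.0 TPM in WT and 48.7, 126 and 66.6 TPM in TG.

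Tendon cell markers had log2 differences below 0 in every setting tried on the lists. All 8 tested tenocyte markers were below 0, with a median of -0.63. Of these, 3 were separated (Thbs4, Comp and Fmod), against 4.26% of all genes separated below WT. Fmod, a tendon proteoglycan that is also on the matrix list, had 99.2, 52.3 and 47.4 TPM in WT and 42.0, 29.6 and 45.8 TPM in TG. Thbs4, a tendon thrombospondin, had 44.0, 33.1 and 23.9 TPM against 19.8, 20.2 and 22.1 TPM. Comp had 7.17, 3.94 and 3.28 TPM and then 2.99, 1.92 and 2.58 TPM. WT replicate 1 was highest for all 3. Summed over the 8 markers, levels were 212.2, 124.3 and 105.4 TPM in WT and 100.1, 70.04 and 97.73 TPM in TG. The same library stood above the rest, and without it the median was -0.34. As a mean of log2 levels the groups overlapped, with WT replicate 3 at -0.105 and TG replicate 1 at -0.058. All 8 stayed below 0 with every library left out in turn, in all scalings listed under the processing, and with the depth covariate.

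Markers of stromal cells were also below WT, by less. This list is not independent of those above: it shares Dcn, Lum and Smoc2 with the matrix list and Col3a1 with the collagens. All 12 fibro-adipogenic progenitor markers were below 0, with a median of -0.27, and 2 were separated, against 4.26% of all genes separated below WT. The median was -0.41 without TG replicate 2. Dcn, the proteoglycan decorin, had 271, 246 and 260 TPM in WT and 230, 231 and 190 TPM in TG (log2 difference -0.26, standard error 0.11). Pi16, which marks a progenitor subset, had 50.2, 35.0 and 53.6 TPM against 33.7, 37.6 and 21.7 TPM. With log2 depth as a covariate 10 of 12 were below 0. In TG the levels were low in replicates 1 and 3 and like WT in replicate 2. Fewer stromal cells and less RNA per cell cannot be told apart in bulk tissue. Whether less connective tissue was carried along when the muscle was cut out was not tested.

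Markers of other cell types mostly overlapped between the genotypes. All 7 Schwann cell markers tested were below 0, with a median of -0.47, but no groups were separated. That median was -0.21 without TG replicate 1, -0.88 without TG replicate 3 and -0.09 with log2 depth as a covariate, where 6 of 7 were below 0. Mbp, a myelin protein, had 27.5, 14.8 and 29.3 TPM in WT and 5.25, 11.6 and 26.7 TPM in TG. Macrophage markers were below 0 in 11 of 11 (median -0.33), and in 6 of 11 (median -0.02) without TG replicate 3; without TG replicate 2 the median was -0.63. The complement gene C1qb had 18.8, 25.0 and 23.4 TPM in WT and 16.5, 28.1 and 10.8 TPM in TG. Smooth muscle markers were below 0 in 10 of 10, and in 5 of 10 without TG replicate 1. Tagln had 18.0, 24.9 and 32.9 TPM in WT and 13.2, 14.7 and 17.7 TPM in TG, so its groups were separated. Adipocyte markers were low in TG replicates 1 and 2 and high in replicate 3: Cfd had 99.4, 101 and 143 TPM in WT and 47.6, 64.6 and 286 TPM in TG. Endothelial markers were below 0 in 11 of 12, with a median of -0.12, and in 4 of 12, with a median of 0.06, without TG replicate 1.

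**Figure D4:**
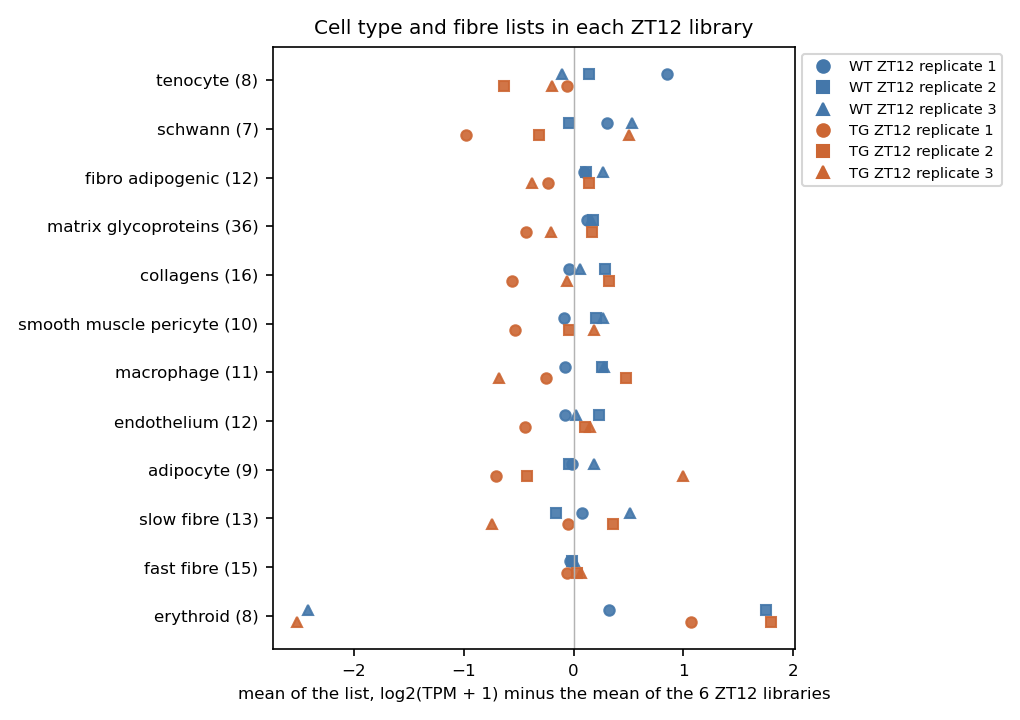
Mean level of each list in each ZT12 library, as log2(TPM + 1) minus the mean of the 6 libraries (horizontal axis), with the number of genes in brackets; blue is WT and orange TG, and the symbol shape gives the replicate. Erythroid genes range from -2.42 to 1.75 in WT and from -2.52 to 1.80 in TG, Schwann cell markers from -0.98 in TG replicate 1 to 0.53 in WT replicate 3, and fast fibre genes hardly move.

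Fibre type and metabolic genes overlapped between the genotypes. The fast fibre list had 10 of 15 members above 0, with a median of 0.03, and Myh4, the main fast myosin of this muscle, had 5908, 6409 and 5823 TPM in WT and 4226, 8003 and 7947 TPM in TG. Slow fibre genes were below 0 in 13 of 13, with a median of -0.23, but without TG replicate 3, 4 of 13 were below 0 and the median was 0.06. Myl3, a slow myosin light chain, had 123, 130 and 174 TPM in WT and 179, 149 and 46.9 TPM in TG. Respiratory chain genes were below 0 in 29 of 33 as deposited and above 0 in 29 of 33 with median-of-ratios scaling, and below 0 in 10 of 33 without TG replicate 3. Fatty acid oxidation genes were below 0 in 24 of 28 (median -0.09) and glycolysis genes in 16 of 28 (median -0.003), with none separated in either list. Without TG replicate 1, 13 of 28 fatty acid oxidation genes (median 0.04) and 6 of 28 glycolysis genes (median 0.13) were below 0, and without WT replicate 2, 11 of 28 (0.03) and 7 of 28 (0.06). Immediate early genes, which mark recent stimulation, were above 0 in 15 of 20 with a median of 0.06, and in 9 of 20 without TG replicate 2 (median -0.07) or without WT replicate 3 (median -0.02); Nr4a1 had 56.1, 48.5 and 53.1 TPM in WT and 50.1, 68.4 and 69.7 TPM in TG. Heat shock genes were above 0 in 12 of 22, and in 2 of 22 without TG replicate 2, where 1586 of all 10415 genes were. Interferon response genes were below 0 in 17 of 20 (median -0.10), and in 11 of 20 (median -0.02) without WT replicate 2. With median-of-ratios scaling the members below 0 were 14 of 28 for fatty acid oxidation, 5 of 28 for glycolysis, 13 of 20 for interferon response, 10 of 16 for muscle wasting, 13 of 23 for growth hormone and insulin-like growth factor signalling, 8 of 18 for the integrated stress response and 7 of 12 for endothelium.

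**Figure D5:**
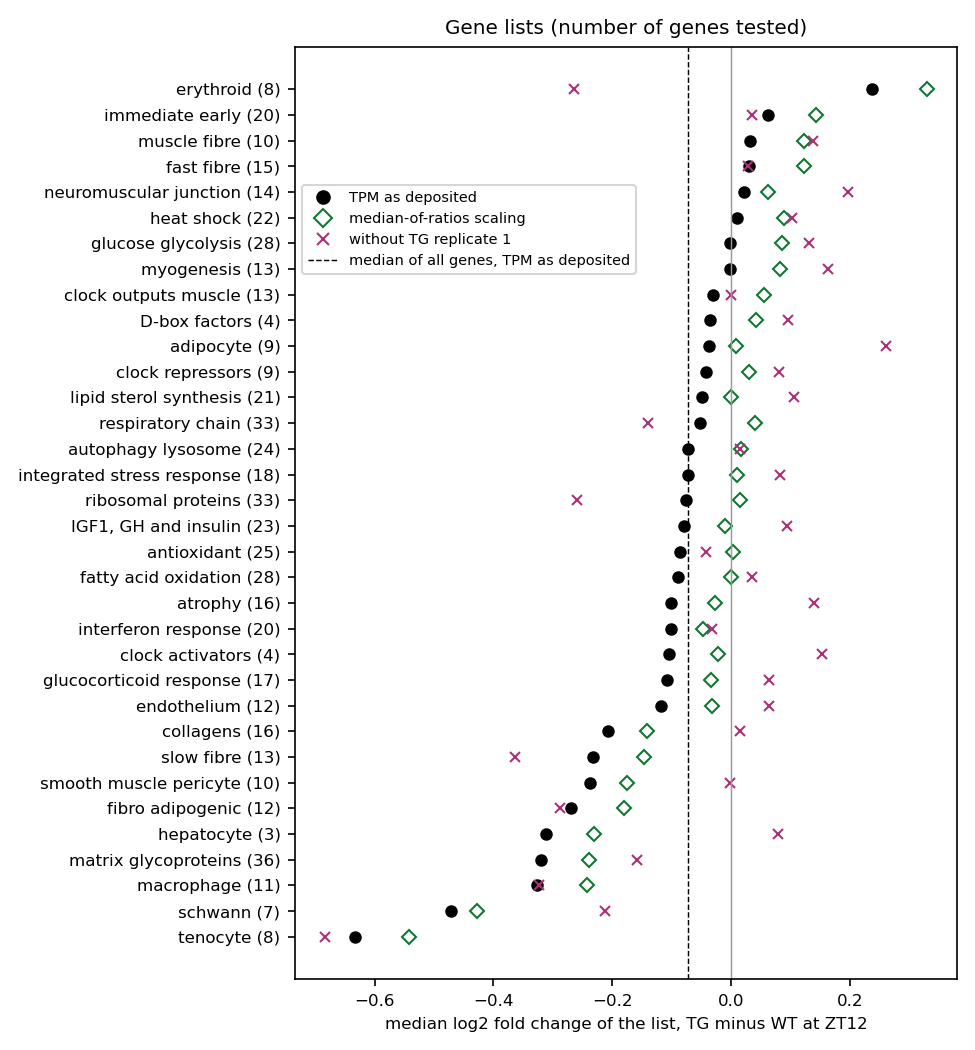
Median log2 difference between TG and WT at ZT12 for each gene list (number tested in brackets), as deposited (black), with median-of-ratios scaling (green diamonds) and without TG replicate 1 (pink crosses); the dashed line is the median of all genes, -0.07. Tenocyte markers lie lowest in all 3 settings, while the collagen and smooth muscle medians move to 0.01 and -0.003 without TG replicate 1.

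Blood and liver transcripts differed between libraries of both genotypes. Summed haemoglobin was 2137, 6161 and 253.5 TPM in WT ZT12 and 4178, 6459 and 203.8 TPM in TG ZT12, and 122.9 to 232.1 TPM in the 6 ZT0 libraries. The libraries numbered 3 were lowest and those numbered 2 highest in both genotypes, so these values differ within a genotype by more than between them. Of 7 hepatocyte markers outside the TPM table, WT replicate 2 was highest in 6 and TG replicate 2 second in the same 6, on the deposited log2 scale that is drawn towards each gene's mean. Albumin (Alb) stood there at 3.584, 4.371 and 3.584 in WT and 3.602, 3.934 and 3.584 in TG. Without both replicates 2, no gene was called either, and the tenocyte median was -0.58. The 9 neutrophil markers lie outside the TPM table and were not tested, and 1 lymphocyte marker, Cd74, was.

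The genotype difference at ZT12 was not shown to differ from that at ZT0. In limma's contrast of the 2 differences 0 genes (0.0%) were called of 10415, the smallest adjusted p was 1.0, and 69 genes (0.663%) had a p under 0.05 before adjustment. That share, too, was smaller than the threshold of 0.05. At ZT0 the genotype difference was above 0 in 2450 of all 10415 genes, with a median of -0.10, so most genes lay below 0. Of the 20 genes of smallest p, 14 had the same sign at ZT0. Igfbp6 was among those that did not, with 45.1 ± 2.30 TPM in WT against 52.7 ± 6.52 TPM in TG at ZT0 (SD, n = 3), and 64.7 ± 4.68 against 45.8 ± 11.2 TPM at ZT12. Its difference of the differences was -0.73 (standard error 0.23). Dcn gave -0.49 (0.15) and Serpinf1 -0.62 (0.19), while Chac1, with 25.6 ± 25.7 TPM in WT against 13.9 ± 2.60 TPM in TG at ZT0, gave -1.40 (0.88). These genes were named by their ZT12 values, and that choice in itself favours a larger difference at ZT12 than at ZT0. Tenocyte markers had a median of -0.15 at ZT0, with 7 of 8 below 0, and fibro-adipogenic markers 0.13, with 3 of 12 below 0.

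Genes missing from the TPM table added little. Every gene it lists reached 1.0 TPM in the first WT library of ZT0, so 2470 further genes with signal at ZT12 were read from the log2 table. Of these, 20 had all TG values below and 4 all TG values above WT, with a range between libraries of at most 0.041. Cish, a target of growth hormone signalling, stood at 2.879, 2.840 and 2.843 in WT and 2.755, 2.843 and 2.753 in TG on that scale.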

How the data were processed

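Per the submitters' processing notes, bcl2fastq, STAR, HOMER 4.11.1 and DESeq2 were used on mm10. The authors deposited TPM for 10475 genes in 12 libraries; each column sums to 429014 to 450432, less than a full TPM scale, since not every gene is listed. Their ZT12 table held log2 values per library, per the file headers FPKM, beside the authors' own log2 differences, p-value and adjusted values. Poly(A) RNA was made into libraries without strand information, per the labels, so overlapping genes cannot be told apart.

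The log2(TPM + 1) values were fitted in limma 3.58.1 with a trended prior (R 4.3.3) for genes reaching 1 TPM in 3 or more libraries, with 1 mean for each of the 4 groups and Benjamini-Hochberg adjustment over 10415 genes. Contrasts were TG minus WT at ZT12 and its difference from ZT0. The script was tested on simulated data. Whole reads were recovered from TPM times transcript length (within 0.1 read, for values under 500 reads) for 99.9% of values or more in each library. Named were Nfil3, called genes, the 20 genes of smallest p with transcripts of at least 200 bases, 3 shorter ones, the 8 highest and 8 lowest log2 differences among separated genes of at least 5 TPM, up to 4 members of each list by p, and clock and D-box genes. Very short genes, among them Mir7672, Snord47 and Mir8112, were set aside because their few reads give unstable TPM. Members and lists were chosen with earlier results of these data known, and the searches for D-boxes, haemoglobin and liver transcripts were made after seeing the data. Alternatives were median-of-ratios, upper-quartile and quantile scaling, pseudocounts of 0.1 and 5, no filter and a filter of 5 TPM, the ZT12 libraries alone, the replicate block, voom on recovered and thinned reads, a depth covariate, the 10 highest genes removed, array weights, the deposited log2 table and each library left out. Python 3.11.15, numpy 2.4.6, pandas 2.3.3, scipy 1.17.1 and matplotlib 3.10.9 made the tables and figures. The values of some list members are not reported here.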

Additional observations from a re-analysis of the deposited data

How the results depend on the processing

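The count of called genes was 0 in 30 of the 34 alternatives, and leaving out each replicate in turn gave 0 to 0. It was 2 (S100a4 and Crip1, both lower in TG) when TG ZT12 replicate 1 and WT ZT0 replicate 2 were left out together, 18 (2 higher, 16 lower) on the deposited log2 table, and 2369 (702 higher, 1667 lower) with array weights. The last estimate did not converge: it gave TG ZT12 replicate 3 a weight of 54.8, so that library decided the values. Estimated gene by gene, an alternative chosen after seeing the data, the weights gave 192 calls (39 higher, 153 lower), with a weight of 5.21 for the same library and 0.14 for TG ZT12 replicate 1. Under the weights that did not converge 8 values turned their direction and were called. These were Cidec 1.02, Cfd 1.34, Adipoq 1.32, Plin1 1.27, Hbb-b2 -2.79, Hbb-bt -2.82, Hba-a2 -2.88 and Hba-a1 -2.90. In these genes TG ZT12 replicate 3 is the highest or lowest of its group. Values that turned without being called are not in this count. Of 159 named genes, 93 kept their sign in every alternative, several of which could not turn a sign at ZT12. Also chosen after seeing the data were the haemoglobin covariate, the fit without both ZT12 replicates 2, the 6 ZT12 libraries without TG replicate 1 (smallest adjusted p 0.298) and voom on the 6 alone, each with 0 calls.

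Over all 12 libraries, replicate numbers did not pair the samples clearly. Over 18 pairs of libraries with the same number the correlation of deviations ran from -0.35 to 0.29. Its median was 0.06, against -0.02 for different numbers, and 5 of 12 libraries correlated best with their own number. Between WT and TG at ZT12 it was -0.14, 0.29 and 0.08 for replicates 1, 2 and 3. The replicates 2 of ZT12 also shared high haemoglobin and liver transcripts, and whether these libraries were handled together was not tested. With the replicate block 0 genes were called, in the fit of 12 libraries and in that of the 6 ZT12 libraries.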

Other observations

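Mthfd2 had a log2 difference of 0.30 at ZT12 and -0.61 at ZT0. Ribosomal protein genes were below 0 in 29 of 33 as deposited, and above 0 in 21 of 33 with median-of-ratios scaling, and below 0 in 14 of 33 without TG replicate 2; their summed level was 3069 to 3340 TPM in WT and 3925, 2628 and 2856 TPM in TG replicates 1 to 3.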
